A study of Mus musculus with 13 samples.

Results

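The resting H3K27ac landscape of mouse bone marrow-derived macrophages is described here from the 3 untreated libraries of a 12-library table. Its members are all 40691 consensus regions of that table, read in the untreated columns only and ranked by mean value, by mean value per kb of width, and by width. The macrophages were grown for 5 days in medium conditioned with M-CSF, the growth factor that drives macrophage development. The untreated cells received neither LPS nor IL-10. Their genotype was IL10-/-RAG2-/- on the 129S6/SvEvTac strain, a background that the treated cells of the series shared, and no wild-type cells were analysed here. The 3 libraries came from separate macrophage pools, per the labels. The immunoprecipitation used the antibody Abcam ab4729, and an input library was not used here. The table gives the same consensus regions for all 12 libraries, so their edges and widths were not drawn from resting cells alone.

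H3K27ac is the acetylation of lysine 27 on histone H3, a mark that acetyltransferases such as p300 and CBP lay down at active promoters and enhancers. Long stretches of strong acetylation, often called super-enhancers, lie beside genes that define a cell's identity. In macrophages such elements are bound by PU.1 (encoded by Spi1), C/EBP factors and AP-1, and lie near genes for the M-CSF receptor, scavenger receptors and lysosomal enzymes.

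Start windows from RefSeq (assembly GRCm38.p6) show the kinds of promoter that strong regions, by value or per kb, covered. Those below are the 250 bases before the listed start of 4 genes, 5′ to 3′ on the gene's own strand. They were chosen, after their values were seen, as a pair rich in CpG and a pair poor in it. Capitals mark the words searched on both strands, in 300-base windows that also held 50 bases after the start: the PU box GAGGAA, the GC box GGGCGG, the AP-1 word TGACTCA and the E-box TCACGTGA of lysosomal genes. Cebpb encodes a transcription factor of myeloid cells, Ctsd the lysosomal protease cathepsin D, Cd68 a glycoprotein of macrophage lysosomes, and C1qb a chain of complement C1q.
Cebpb, chr2:167688665-167688914, plus strand: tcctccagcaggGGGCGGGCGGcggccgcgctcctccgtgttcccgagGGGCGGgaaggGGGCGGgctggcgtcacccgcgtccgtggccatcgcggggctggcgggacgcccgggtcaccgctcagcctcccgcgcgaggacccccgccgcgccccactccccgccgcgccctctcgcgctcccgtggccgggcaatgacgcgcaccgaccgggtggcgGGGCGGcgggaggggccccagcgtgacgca
Ctsd, chr7:142387828-142388077, minus strand: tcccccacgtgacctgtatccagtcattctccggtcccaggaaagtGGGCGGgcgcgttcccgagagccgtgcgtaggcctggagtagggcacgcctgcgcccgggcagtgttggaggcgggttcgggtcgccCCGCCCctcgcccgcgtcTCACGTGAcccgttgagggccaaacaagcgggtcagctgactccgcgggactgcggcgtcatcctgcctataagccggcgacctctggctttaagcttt
Cd68, chr11:69666171-69666420, minus strand: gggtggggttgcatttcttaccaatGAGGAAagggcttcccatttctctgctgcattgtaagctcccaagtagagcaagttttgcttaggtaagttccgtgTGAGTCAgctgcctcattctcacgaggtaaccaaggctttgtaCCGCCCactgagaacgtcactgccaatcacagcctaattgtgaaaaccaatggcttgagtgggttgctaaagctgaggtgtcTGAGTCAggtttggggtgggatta
C1qb, chr4:136886201-136886450, minus strand: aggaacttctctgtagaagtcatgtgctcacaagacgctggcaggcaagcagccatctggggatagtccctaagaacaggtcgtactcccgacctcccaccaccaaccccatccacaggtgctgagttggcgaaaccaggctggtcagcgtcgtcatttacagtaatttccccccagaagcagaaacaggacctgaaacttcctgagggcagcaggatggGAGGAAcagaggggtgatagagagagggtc
The Cebpb window held 80.7% G and C, with a CpG observed-to-expected ratio of 1.03 and 5 GC boxes, of which the first 2 overlap. The Ctsd window held 67.3% G and C at a ratio of 0.97, with 2 GC boxes and an E-box at position -99 from the start. In Cd68 the ratio was 0.24, with a PU box at position -225, a GC box at -106 and AP-1 words at -149 and -24. For C1qb the ratio was 0.25, with a PU box at position -30.

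Across 21263 listed start windows of 17492 genes, the PU box word was present in 27.4%, the GC box in 46.2%, the AP-1 word in 4.66% and the E-box in 1.23%. Windows inside a consensus region had a median CpG ratio of 0.77, and those in no region 0.24. Windows of the macrophage surface and effector genes had a median CpG ratio of 0.23, like those in no region, although every one of these genes had a region. The PU box word stood in 20 of their 36 windows (55.6%). In windows of lysosomal genes its share was 39.1%, and in those of macrophage lineage transcription factors 31.0%. It was 29.8% in windows of the strongest 1% of regions by value and 29.5% per kb, near that of all windows. Windows of cytosolic ribosomal protein genes lay at the other end, with a median CpG ratio of 0.92 and the PU box word in 5 of 24. Among lysosomal genes, 3 of 23 windows (13.0%) held the E-box. Some genes have several windows, and a word is a match of letters, not a binding site.

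The deposited values are whole numbers multiplied by 1 scaling factor per library, called scaled reads below. The whole numbers, called reads here, may be read counts or differences of reads held at a floor of 1. Reads recovered over all regions came to 12698228 in replicate 1, 7208540 in replicate 2 and 26922552 in replicate 3. The median region held 67, 30 and 89 reads. Across the 40691 regions, Pearson's r of the deposited values was 0.972 between replicates 1 and 2, 0.957 between 1 and 3, and 0.917 between 2 and 3. These correlations describe regions of shared libraries, and the strongest regions weigh most in them.

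Replicate 3 stood apart at gene starts. In the stronger part of the landscape (values at or above the median), the 7760 regions with a listed start had a median log2 ratio of 0.93 between replicate 3 and the mean of the other 2. Replicate 3 was the higher in 91.1% of them. At 7523 regions inside genes without a listed start the median log2 ratio was -0.04, and at 4404 regions outside genes it was -0.14. On chromosomes with listed starts, start-holding regions took 47.0% and 46.1% of scaled reads in replicates 1 and 2, and 55.8% in replicate 3. The cause was not tested, and the main rankings are given with and without that library.

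**Figure D1:**
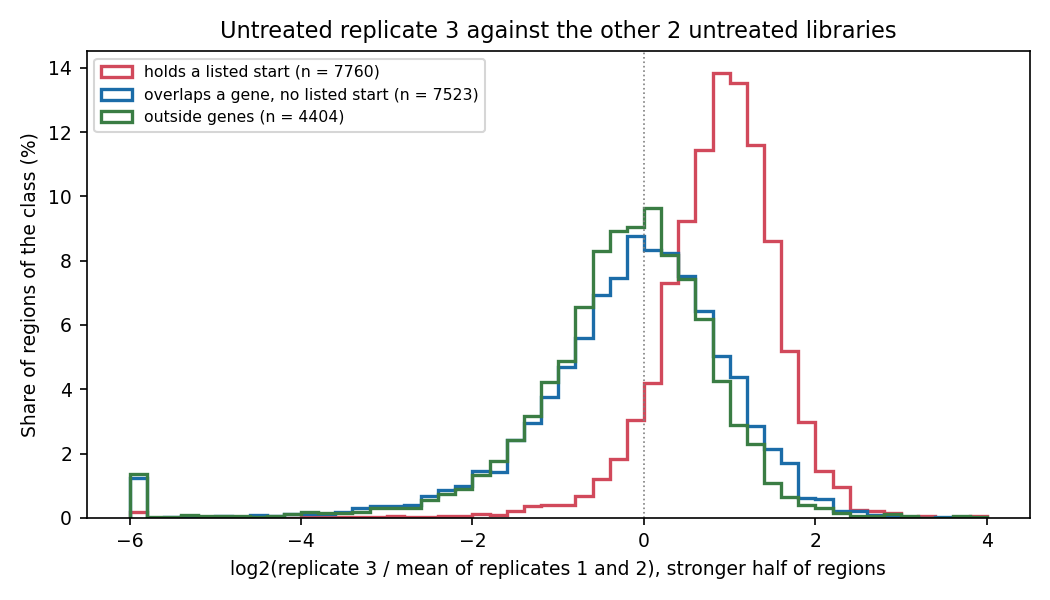
Share of regions (%) by the log2 ratio of untreated replicate 3 to the mean of replicates 1 and 2, for regions at or above the median value, with ratios beyond the axis gathered in the outermost bins. Lines show regions with a listed gene start (7760), inside genes without one (7523) and outside genes (4404). The start-holding regions sit to the right of 0, with a median of 0.93.

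Scaled reads were concentrated in few regions, which were also wide. The strongest 1% of regions, 407 ranked within each library, held 20.7%, 23.3% and 20.9% of its scaled reads in replicates 1, 2 and 3 (mean 21.6% ± 1.44, SD, n = 3). The strongest 10%, also ranked within each library, held 65.1% ± 2.24 (SD, n = 3). The strongest 407 by mean value had a median width of 42724 bp, against 3062 bp for all regions, so width enters these shares. A curve of ranked values turned upward, by the point where its slope passes that of the diagonal, at 1432 regions. That point fell at 1400, 1498 and 1466 regions in the single libraries. Regions above it held 41.3% of the summed mean value. The last region above the turn had a mean value of 1330.4 and the next 1329.6, so the line divides a continuum. The same holds at the edge of the strongest 1%, where the values on either side were 2950.4 and 2948.8.

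At the other end, 5803 regions (14.3%) lay at exactly 1 read in all 3 libraries, the lowest value of each library. A further 8411 lay there in 1 or 2 libraries, and 26477 (65.1%) were above it in all 3. A value at this floor does not show the region to be free of acetylation, since the sources used here do not say whether reads were subtracted first. Whether the values are plain read numbers or differences held at a floor was not tested. Wide regions at exactly 1 read are described below.

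Wide regions carried much of the signal. The median region was 3062 bp wide and the range ran from 286 to 220316 bp. The 1791 regions of 20 kb or more made up 4.40% of regions and held 38.2% of the summed mean value. They also cover more bases each, so that share joins width and strength, and their share of covered bases is not given here. Of these, 219 reached 50 kb and 24 reached 100 kb. Across regions, Spearman's rho between width and mean value was 0.63, and between width and mean value per kb 0.32. Both measures share the width, so these are descriptions only. Median value per kb rose from 6.06 in regions under 1 kb to 67.4 in those between 50 and 100 kb, and was 55.1 in the 24 widest. The lists of the strongest 407 by value and by value per kb shared 68 regions (16.7% of each). By value and by width they shared 218 (53.6% of each).

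**Figure D2:**
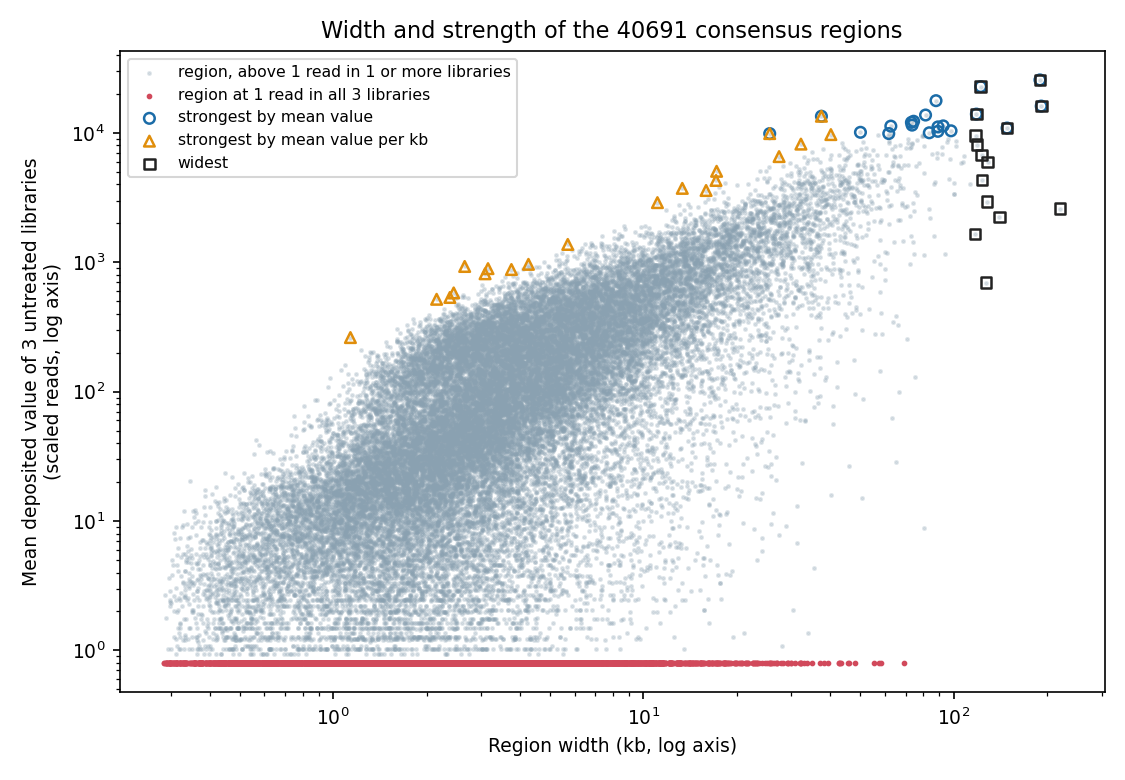
Region width (kb, log axis) against the mean deposited value of the 3 untreated libraries (scaled reads, log axis), 1 point per consensus region. Red points are the 5803 regions at 1 read in all 3 libraries; circles, triangles and squares mark the 20 strongest by value, the 20 strongest per kb and the 15 widest. Strong regions per kb run down to 1137 bp in width, while the strongest by value are all wider than 25 kb.

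The strongest region of the resting genome lay on chr8:126743614-126933483, was 189870 bp wide and overlapped one end of Tomm20, a mitochondrial import receptor. Its values were 23218, 26883 and 26958 scaled reads in replicates 1, 2 and 3 (mean 25686 ± 2138, SD, n = 3). It ranked first or second in every library. Irf2bp2, a co-regulator of transcription in macrophages, lay 149628 bp away on the other side.

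Next came chr17:84051345-84173674, a 122330-bp stretch with no protein-coding gene that ended 10250 bp from Zfp36l2. That gene encodes an RNA-binding protein that promotes mRNA decay. Values were 18420, 20048 and 29942 scaled reads, the highest being replicate 3. Ranked 3, chr19:9909445-9997226, covered the start of Fth1, the heavy chain of the iron store ferritin, and part of Best1. Its values lay close together at 16750, 17495 and 19015 scaled reads.

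Regulators of transcription stood at or beside the regions ranked 4 and 5. The Cebpb region, chr2:167683622-167875302, was 191681 bp wide around a gene of 1518 bp, the one whose start window is printed above. It held 13769, 13249 and 21345 scaled reads, with replicate 3 the highest. A gene-free region on chr2:45173088-45291545, 55646 bp from Zeb2, held 12082, 19023 and 10831. Zeb2 encodes a zinc-finger repressor that maintains macrophage identity. Here replicate 2 was the high library.

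Surface and signalling genes followed. The sixth region, 81229 bp on chr11:70430619-70511847, overlapped Arrb2, Cxcl16, Med11, Tm4sf5 and Zmynd15 and held 11819, 13895 and 15536 scaled reads. Cxcl16 is a chemokine that also acts as a scavenger receptor. The seventh, chr9:123923172-123960674, ended 1452 bp from the chemokine receptor gene Ccr1 and held 9602, 17382 and 13376. At 37503 bp it was narrow for its strength, and its 358.7 scaled reads per kb ranked second of all regions.

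Of the other 13 regions among the 20 strongest, 12 were on placed chromosomes and had mean values between 9886 and 12304. They overlapped the adhesion gene Cadm1, the survival gene Mcl1 with Ensa, Golph3l and Adamtsl4, and Slc43a2 with Pitpna. Others overlapped Cd300a with Cd300lb, Tns3, Clmp, the scavenger receptor gene Stab1 with Nisch, the ETS factor gene Fli1, and Tnfrsf1b (TNF receptor 2) with Tnfrsf8. The remaining 3 overlapped no protein-coding gene. Of these, 1 lay between Atf3 (30594 bp) and Nenf (3790 bp), and 1 was 63693 bp from Prdm1, which encodes the repressor Blimp-1. The last stood in a desert on chr13:97517012-97609588, 263972 bp from Enc1 and 289006 bp from Arhgef28, with 9671, 12498 and 11828 scaled reads.

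The twentieth region lay on the unplaced contig JH584304 and held 9421, 6530 and 13693 scaled reads. It was also the first per kb, at 386.8 scaled reads per kb. A neighbour of 46103 bp on the same contig lay at 1 read in all 3 libraries. Unplaced contigs often hold repeats whose copies the assembly collapses. Of 47 regions on unplaced or random contigs, 33 were at 1 read in all 3 libraries.

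The ranks were then compared between libraries. Of the 20 strongest regions by mean, 9 were among the 20 strongest of every library, and the worst rank any of them took was 77, the unplaced contig in replicate 2. Of the strongest 407, 299 were in the strongest 1% of every library. Without replicate 3, 16 of the 20 and 376 of the 407 stayed on their lists.

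**Figure D3:**
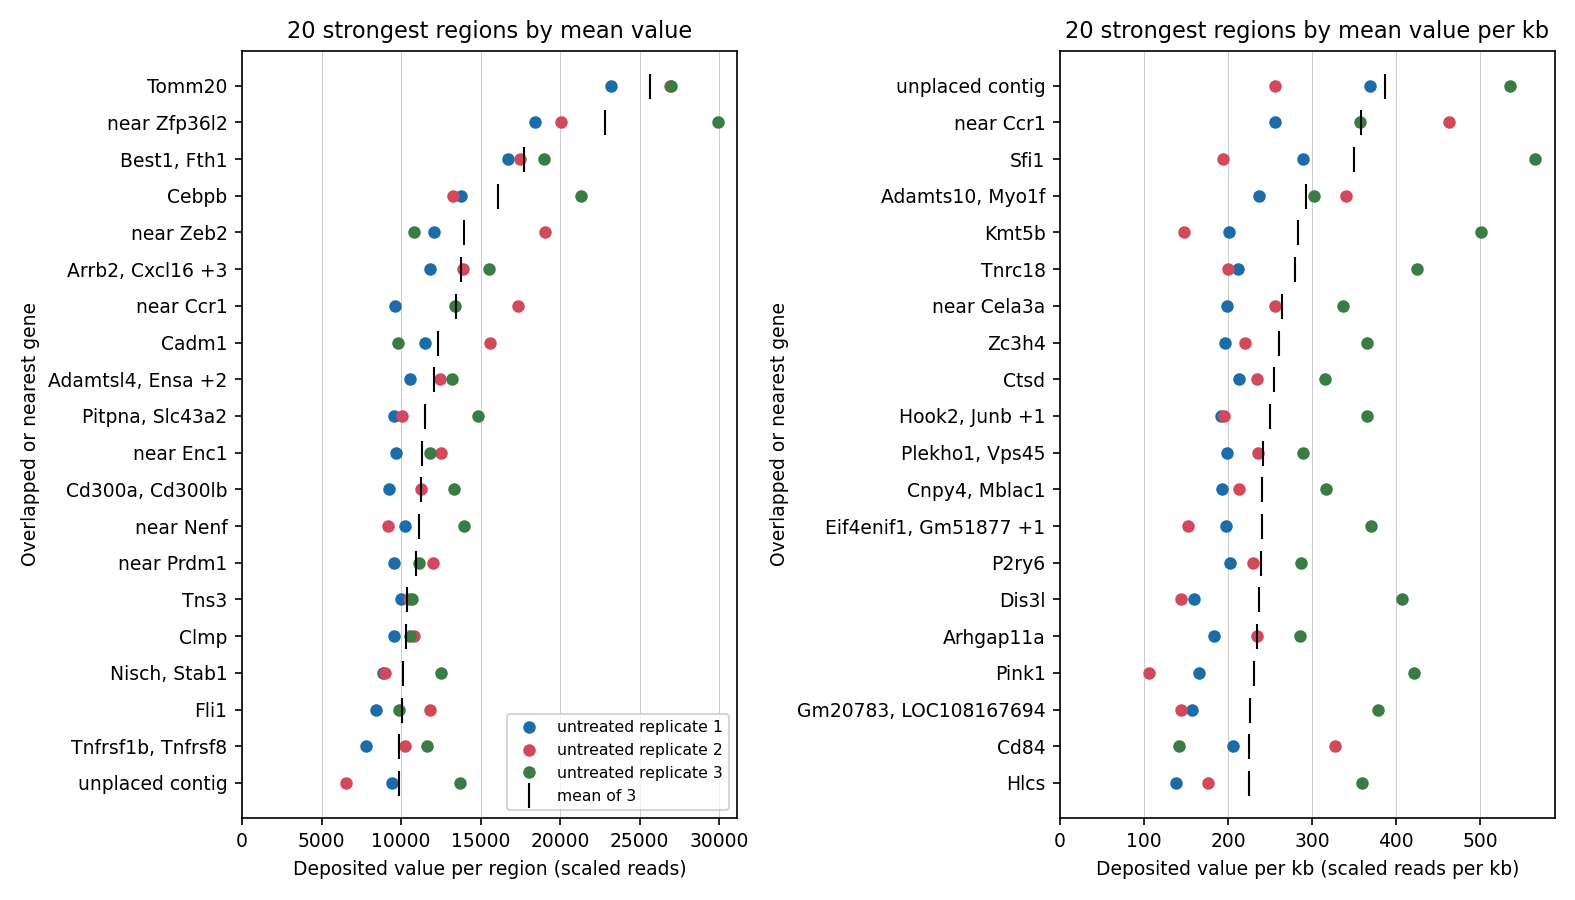
Deposited value per region (left, scaled reads) and per kb (right, scaled reads per kb) of the 20 strongest regions by each ranking; points are the 3 untreated libraries and the bar is their mean, and the label names overlapped genes or the nearest gene. On the right, replicate 3 is the highest library in all regions but 3, those beside Ccr1, at Myo1f and at Cd84.

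Ranking by value per kb brought up compact promoter regions. The strongest 20 by this measure had a median width of 8405 bp, against 85652 bp for the 20 strongest by value. The median coefficient of variation over the 3 libraries was 38.1%, against 18.8%. Of the 407 strongest per kb, 302 (74.2%) held a listed protein-coding start, against 238 (58.5%) of the 407 strongest by value (55.3% without replicate 3) and 21.9% of all regions. Replicate 3 weighs on this list. Without it, 265 of the 407 stayed on the list, 248 (60.9%) of the list then held a start, and the median width rose from 4713 to 8475 bp. Of the 20, 13 stayed.

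Several of the 20 were regions of 15 kb or more. Myo1f, an unconventional myosin of leukocytes, shared a 17225-bp region with Adamts10 at 4078, 5868 and 5202 scaled reads (293.2 per kb). The Ctsd region, 32208 bp on chr7:142377800-142410007 around the E-box window printed above, held 6866, 7541 and 10175 (254.4 per kb). Junb, an AP-1 subunit, with Hook2 and Prdx2, held 3277, 3338 and 6261 (250.2 per kb). Plekho1 with Vps45 reached 241.3 per kb and P2ry6, a receptor for UDP, 239.5. Cd84, a SLAM-family receptor, had 225.2 per kb and was lowest in replicate 3, at 3287, 5218 and 2261 scaled reads.

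The rest were mostly starts of genes of other kinds. Kmt5b, a histone H4 methyltransferase, held 633, 464 and 1583 scaled reads over 3157 bp. At Pink1, a mitochondrial kinase gene, replicate 3 was again the highest (187, 120 and 479 over 1137 bp). Tnrc18, Zc3h4, Dis3l, Arhgap11a, Hlcs and the pair Mblac1 and Cnpy4 lay between 224.8 and 279.1 per kb. A 3089-bp region between Cela3a (11574 bp) and Cdc42 (29133 bp) reached 263.8 per kb. Regions at Sfi1 (349.6 per kb) and at Eif4enif1, Gm51877 and Sfi1 (240.0 per kb) stood near each other on chromosome 11, and a further one covered LOC108167694 and Gm20783 (226.2 per kb). Whether reads can be assigned to 1 copy in these last regions was not tested.

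The widest regions were not all strong. The widest of all, 220316 bp in the LIM-domain gene Lpp on chr16:24581460-24801775, held 2435, 3604 and 1761 scaled reads, or 11.8 per kb. A second stretch in Lpp, 123186 bp wide, held 54.8 per kb. The 140516-bp region at Tnfaip3, which encodes the NF-kappaB inhibitor A20, held 2329, 2678 and 1706, or 15.9 per kb. At Ch25h, the cholesterol 25-hydroxylase gene, a 127357-bp region held 1028 and 997 in replicates 1 and 2 but 67.8 in replicate 3. Its mean of 5.48 per kb is below the median of all regions, 16.4.

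The others among the 15 widest ran from strong to weak. The Klf6 region (119036 bp) held 7702, 10423 and 6215 scaled reads, and that at Bcl2a1b and Mthfs 8689, 11460 and 8442. Etv6 held 35.1 per kb, the stretch 34877 bp from Marcks 46.3, and that 152177 bp from Ptger4 23.0. Within the neighbourhood of Zeb2, the gene-free region described above held 118.0 per kb, and a 117181-bp region over the gene itself 14.2 (1649, 2607 and 718 scaled reads). The other 4 of the 15 were the Cebpb, Tomm20, Zfp36l2-side and Prdm1-side regions.

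Some wide regions lay at the floor in resting cells. Of the 1791 regions of 20 kb or more, 63 were at 1 read in all 3 untreated libraries. The widest, 69128 bp on chr5:29910297-29979424, lay 33690 bp from Il6. Others were a 58303-bp region in Schip1, 41469 bp from Il12a, a 42690-bp region 22181 bp from Nos2, and a 42883-bp region over Marco, a scavenger receptor gene. Since all libraries share the regions, a region can be wide here without signal in these 3 libraries.

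Place in the genome went with strength. Of the 39374 regions on chromosomes with listed starts, 8918 (22.6%) held a protein-coding start and took 50.1% of the summed mean value, or 46.6% without replicate 3. Their median was 62.6 scaled reads per kb, or 47.2 without replicate 3 (49.98, 43.03 and 88.62 in replicates 1, 2 and 3). The 17819 regions inside genes without a listed start had a median of 12.5 per kb, and the 12637 outside genes 9.19. At 1 read in all 3 libraries were 2.15% of the first class, 14.2% of the second and 22.5% of the last. The next shares are over all 40691 regions, and those on chromosomes without listed starts count as holding none. In the strongest 10% by value 51.9% held a start, against 3.24% in the weakest 10%. By value per kb the shares were 67.9% and 3.98%. Without replicate 3 the strongest 10% held a start in 47.1% by value and 57.8% per kb.

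**Figure D4:**
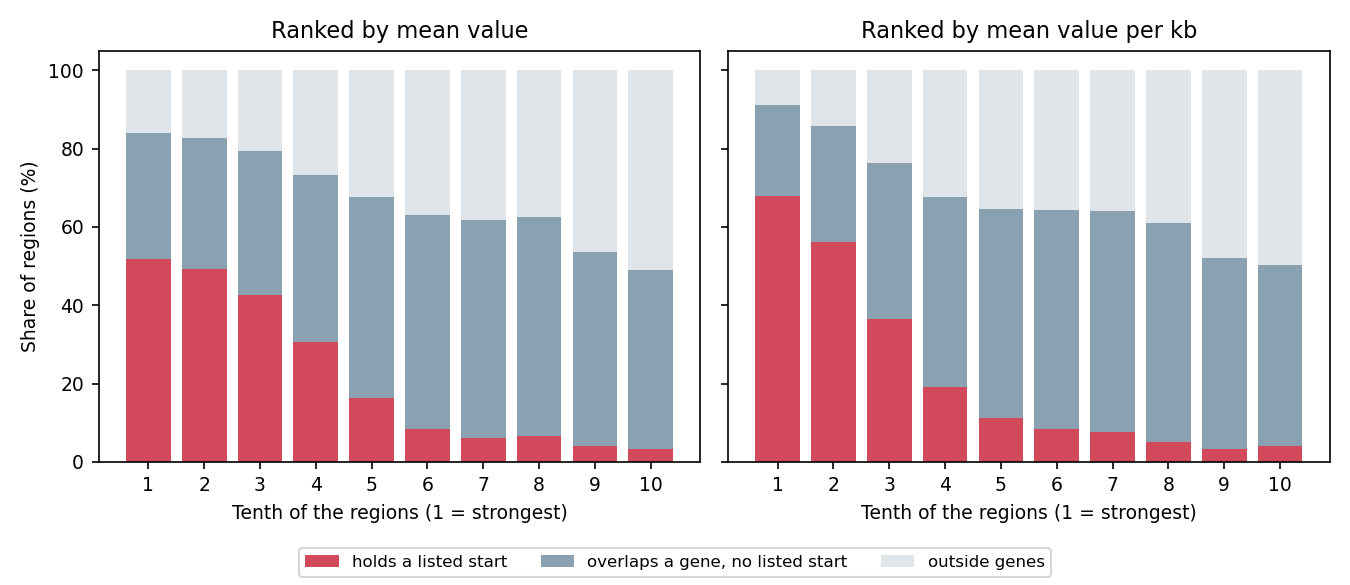
Share of regions (%) that hold a listed protein-coding start, overlap a gene without one, or lie outside genes, in 10 equal groups of regions from strongest (1) to weakest (10), by mean value (left) and mean value per kb (right). The start-holding share falls from 51.9% to 3.24% on the left and from 67.9% to 3.98% on the right. Regions on chromosomes without listed starts count as holding none.

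Each gene was given the sum of the regions that overlap it or, for a region outside genes, have it as the nearest gene within 100 kb. A total of 14979 of 21887 protein-coding genes had a region. The sum grows with the width and number of regions, so the highest region per kb is also given for some genes and lists. That maximum can also rise with the number of regions. The median number was 5 per transcription factor of the macrophage lineage, 2 per macrophage surface and effector gene, and 2 over all genes. By construction 10% of these genes (1498) are in the top 10%, which began at 2117 scaled reads, and 4.05% (606) had every region at 1 read in all 3 libraries. The highest sums were those of Zfp36l2 (26210.5), Tomm20 (26056.7), Zeb2 (21337.8) and Lpp (19723.1, over 29 regions). They were followed by Clmp, Vps13d, Best1 with Fth1, Cadm1 and Cebpb, then Ifnar1, Dner, Ifnar2, Tns3 and Prdm1. Ifnar1 and Ifnar2, the subunits of the type I interferon receptor, shared regions with Il10rb, a subunit of the IL-10 receptor.

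Transcription factors of the macrophage lineage had the highest median percentile of the 22 lists. Of 30 factors, all with a region, 22 were in the top 10%, and all 30 were above the median gene. Their median percentile was 97.3 and the median of their highest region 101.9 scaled reads per kb, against 61.6 for all genes. Mef2a summed to 10253, 10756 and 14063 scaled reads over 13 regions, and Runx1 to 9581, 9035 and 15177 over 19. Spi1 had 5668, 6294 and 9546, of which nearly all came from a 34955-bp region shared with Slc39a13 (204.3 per kb). The lowest were Bhlhe40 (607, 446 and 981) and Ets2 (206, 469 and 513), neither in the top 10% in the mean. Ranked by value per kb of covered width, 8 of the 30 were in the top 10%.

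Receptors and effectors of macrophages followed. Of 40 genes, 29 were in the top 10% and the median percentile was 95.6, with a median highest region of 100.9 per kb. A region shared by several genes counts in full for each, so these genes do not all stand for separate regions. Csf1r, the M-CSF receptor, held 7234, 7365 and 9763 scaled reads in 1 region of 67401 bp. Lgals3 (galectin-3) held 6511, 7120 and 8396. Cx3cr1, the fractalkine receptor, held 5456, 4702 and 10568, with replicate 3 well above the others. Lyz1 and Lyz2, the lysozyme genes, share 1 region at 5321, 6988 and 7613 (99.0 per kb).

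The C1q genes C1qa, C1qb and C1qc share a 23797-bp region that held 4088, 4492 and 6578 scaled reads (212.3 per kb). Cd68 shares 13572 bp with Eif4a1, Mpdu1 and Senp3, at 2165, 2350 and 3086 (186.7 per kb). The weakest of the list were Clec7a, the beta-glucan receptor dectin-1, at 355.6, 442.5 and 437.9, and Lpl, lipoprotein lipase, at 160, 233 and 180 over 5 regions with at most 12.7 per kb. By value per kb of covered width, 16 of the 40 were in the top 10%.

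**Figure D5:**
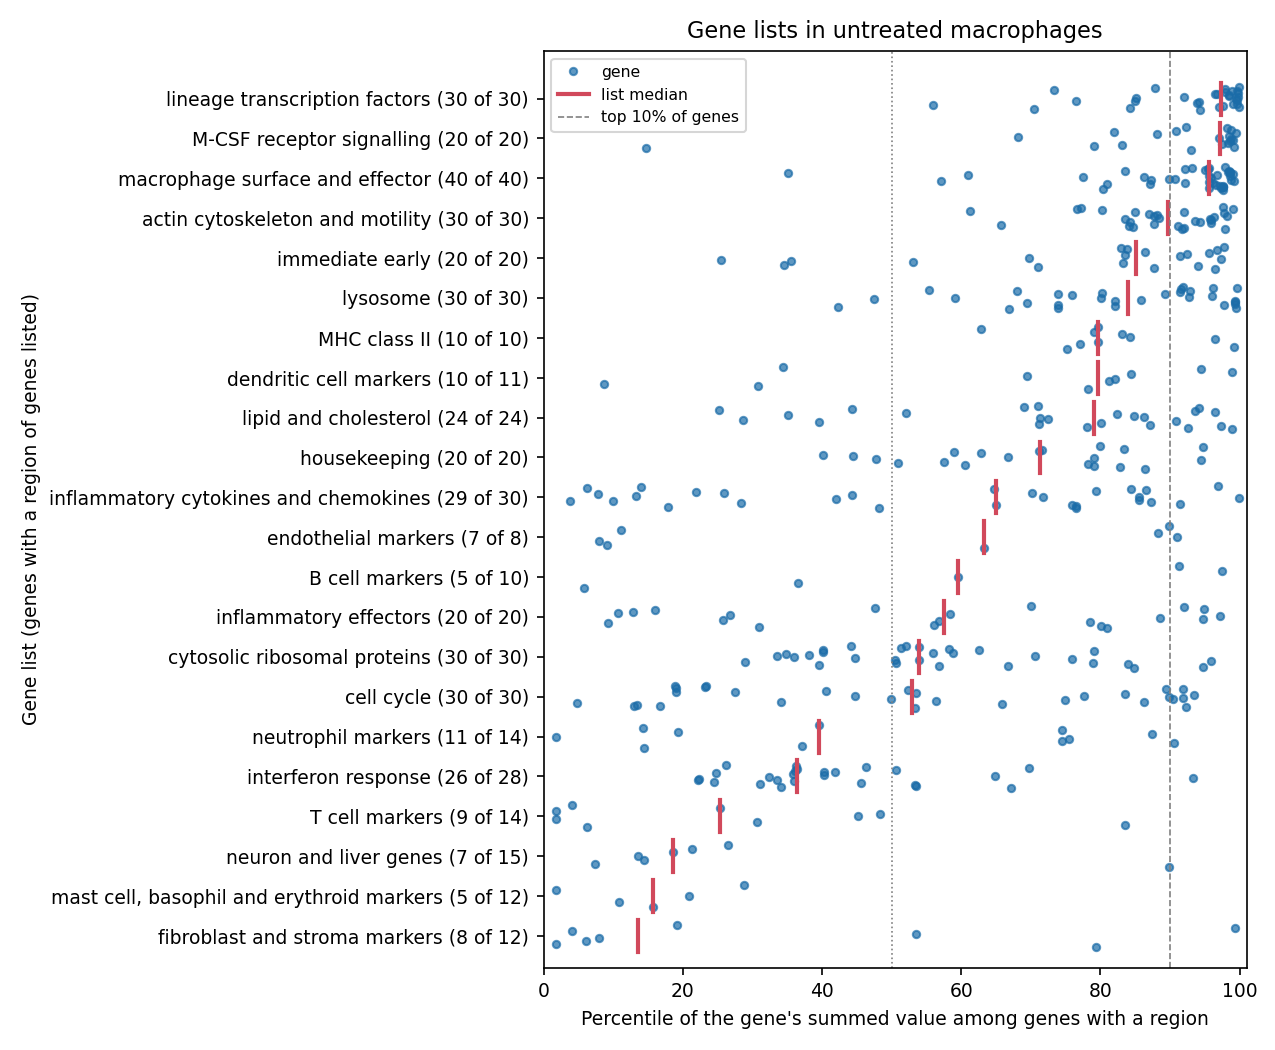
Percentile of each gene's summed value among the 14979 genes with a region (horizontal), for 22 gene lists (rows, with genes that have a region of those listed); points are genes, red bars list medians, and the dashed line the top 10%. Lineage factors (median 97.3), M-CSF receptor signalling (97.2) and macrophage surface genes (95.6) sit at the right edge, and interferon response genes at 36.4.

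Signalling below the M-CSF receptor was marked to a similar level, with 14 of 20 genes in the top 10% and a median percentile of 97.2. By value per kb of covered width, 5 of the 20 were. Pik3r5, a regulatory subunit of PI3-kinase gamma, held 7961, 9740 and 9247 scaled reads. The adaptor gene Sh3bp2 held 5244, 5803 and 9236, with replicate 3 the highest. Csf1, the gene of M-CSF itself, was the lowest at 63.6, 18.9 and 36.4, the 14.7th percentile.

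Lysosomal genes were split. Of 30, 13 were in the top 10% and the median percentile was 84.0, with a median highest region of 104.5 per kb (84.7 without replicate 3). Psap, the precursor of the saposins, held 8577, 8517 and 11828 scaled reads, and Atp6v0d2, a subunit of the proton pump, 8475, 11077 and 6666. The protease genes Ctss and Ctsk share a region, with sums of 7665, 9214 and 8009 for Ctss. Atp6v1h (185, 190 and 377), another proton pump subunit, was below the median gene by sum, with a highest region of 77.3 per kb. Counted per kb of covered width, 14 of the 30 were in the top 10%.

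Of 30 actin and motility genes, 15 were in the top 10%, with a median percentile of 89.7, and 8 by value per kb of covered width. Tmsb4x (thymosin beta-4) led at 7084, 8029 and 7492 scaled reads, then Lcp1 (L-plastin) at 4483, 6666 and 5708, and Actb at 4183, 4260 and 7443. Arpc5 (406, 424 and 862) and Rac2 (293, 398 and 743) were lowest. Among 24 lipid and cholesterol genes 7 were in the top 10%, and 2 by value per kb of covered width. Abca1, the cholesterol exporter, held 7311, 8464 and 5561 and Apoe 3726, 3205 and 7294. Nr1h3, the oxysterol receptor LXR-alpha, had a highest region of 167 per kb. The fatty acid synthesis genes Fasn (118, 41.6 and 263) and Scd1 (127, 98.3 and 121) were lowest.

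Genes used by all cells gave a contrast between the measures. Of 30 cytosolic ribosomal protein genes, 2 were in the top 10% by sum, Rpl3 and Rpl11, and the median percentile was 53.9. The median of their highest region was 95.1 per kb, against 100.9 for the macrophage surface list. That nearness rested on replicate 3, without which the medians were 64.0 and 91.7, against 48.6 for all genes. By value per kb of covered width, 8 of the 30 were in the top 10%. Rpl27, the lowest by sum, held 74.9, 87.0 and 265, with replicate 3 the highest. The housekeeping list had 2 of 20 in the top 10%, Hspa8 among them, and a median of 80.1 per kb, or 67.5 without replicate 3.

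Immediate early genes had signal in cells given neither LPS nor IL-10. Of 20, 8 were in the top 10%, and 5 either by value per kb of covered width or from overlapping regions alone. Zfp36, which encodes the mRNA-decay factor tristetraprolin, held 3968, 4787 and 6575 scaled reads (206 per kb in its region). Fos held 3721, 4330 and 6103, and Atf3 3939, 3312 and 5264. Dusp2 (129.4, 143.7 and 283.5) and Egr3 (112, 41.6 and 198) were lowest. Cell cycle genes had 5 of 30 in the top 10%, or 2 by value per kb of covered width, and a median percentile of 52.9, from E2f2 (2318, 1842 and 4444) and Aurkb (2034, 2349 and 3404) to Ccna2 (0.71, 16.4 and 69.9) and Ccnd2. Ccnd2 was at 1 read in all libraries in each of its 3 regions.

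Inflammatory cytokine and chemokine genes ranged over the whole scale. Of 29 with a region, 3 were in the top 10% (10.3%, against 10% of all genes) and the median percentile was 65.0. Cxcl16 was highest, in the sixth-ranked region. Tnf, in a region with Lta, Ltb, Lst1, Nfkbil1 and Atp6v1g2, held 4191, 3736 and 5344 scaled reads. The chemokine genes Ccl6 (1807, 3086 and 2249) and Ccl9 (1304, 2081 and 1739) followed. Il6 summed to 4.9, 6.3 and 2.1 over 5 regions, and Csf3 to 2.8, 1.3 and 0.42, near the floor. The number in the top 10% was 2 without replicate 2 and 1 by value per kb of covered width, but 5 by the strongest single region.

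Inflammatory effector genes had 4 of 20 in the top 10%: the inflammasome sensor Nlrp3 (3694, 4591 and 5493), Socs3, Nfkbia and Tnfaip3, the last 3 of which encode inhibitors of cytokine or NF-kappaB signalling. None of the 20 was by value per kb of covered width. Ptgs2 (19.1, 12.6 and 19.7) and Edn1 (7.8, 25.2 and 4.6) were lowest. Interferon response genes ranked low, with 1 of 26 in the top 10%, 19 below the median gene, and a median percentile of 36.4. By value per kb of covered width, or from overlapping regions alone, none was. Irf1 was the 1 high gene, at 2707, 2258 and 3610 scaled reads. Ifit1 held 139, 87.0 and 46.1, and Ifit3 181, 87.0 and 9.2, lowest in replicate 3. Of 10 MHC class II genes, 2 were in the top 10%: Ciita, the class II transactivator (7076, 6801 and 9714), and H2-DMa (3733, 3068 and 5822). Cd74 held 983, 637 and 918. None of the 10 was in the top 10% by value per kb of covered width.

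Markers of other cells were read as well, and the label was not tested with them. The cells were RAG2-/-, so the T and B cell lists cannot check it. Of all 21887 protein-coding genes, 6908 had no region, and of the 14979 with one, 606 had every region at 1 read. The counts of markers without a region are to be read beside that share, which some lists come near. Of 14 T cell markers, 5 had no region and 3 of the other 9 were at 1 read in all libraries, among them Cd3e and Cd8b1, and none was in the top 10%. Cd28 was the highest, at 1483, 1528 and 963 scaled reads. Of 10 B cell markers 5, among them Pax5, Ebf1 and Cd79b, had no region. Fcrla (4388, 4577 and 5615, in a region with Fcrlb) and Ms4a1 (2094, 2956 and 2062) were in the top 10%. Of 12 mast cell, basophil and erythroid markers 7 had no region, and Kit was at 1 read throughout. Among 14 neutrophil markers Mpo, Ngp and S100a9 had no region, Ly6g was at 1 read, and Csf3r (1897, 1735 and 3003) was in the top 10%. Without replicate 3 no neutrophil marker was, and without replicate 2 the B cell list had 1.

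Dendritic cell markers had 2 of 10 in the top 10%, Tcf4 (6699, 8581 and 5936, over 18 regions) and Xcr1 (2871, 3738 and 2939, in a region with Fyco1), while Ccr7 held 23.3, 6.3 and 2.1. In the fibroblast list Pdgfrb was in the top 10% through the region it shares with Csf1r and Hmgxb3. Col1a1 was at 1 read, and Col3a1, Pdgfra, Thy1 and Twist1 had no region. Of 8 endothelial markers, Kdr (2647, 2122 and 2200) was in the top 10%, and Esam held 0.71, 1.3 and 23.4. That count was 0 without replicate 1 and 2 without replicate 2. Of 15 neuron and liver genes 8 had no region and none was in the top 10%. Apoa2 came nearest through a region with Fcer1g and Tomm40l, and entered it without replicate 1. Chromatin of a few other cells and weak marking in all cells cannot be told apart in pooled libraries.

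The deleted loci carried signal. Il10 summed to 1176, 1645 and 1002 scaled reads over 3 regions, mostly in a 34563-bp region over the gene, at the 83.0th percentile. The Rag2 region, shared with Iftap, held 377, 590 and 313. Acetylation near a gene does not check its deletion, as the deleted part and its flanks are not told apart here.

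Hairpins of microRNAs, short RNAs that repress mRNAs through their seed (bases 2 to 8), lay in some of the strongest regions. Of 1005 hairpins in the RefSeq table, 231 lay inside 206 regions. Of these 231 hairpins, 24 lay in the strongest 1% of regions and 6 in regions at 1 read in all 3 libraries. Wide regions can hold more hairpins by width alone, so these counts do not show that hairpins favour strong regions. The mature sequences below belong to 7 microRNAs known from myeloid cells, chosen after their values were seen. Seeds are in capitals, and no 2 of the 7 share a seed.
mmu-miR-21a-5p: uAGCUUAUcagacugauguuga
mmu-miR-23a-3p: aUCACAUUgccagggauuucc
mmu-miR-27a-3p: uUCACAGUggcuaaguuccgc
mmu-miR-24-3p: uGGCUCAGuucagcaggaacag
mmu-miR-142a-3p: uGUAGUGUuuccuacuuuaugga
mmu-miR-223-3p: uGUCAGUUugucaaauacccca
mmu-miR-155-5p: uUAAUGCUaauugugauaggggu
The Mir21a hairpin lay in a 72649-bp region over Vmp1 and Tubd1 that ranked 49th, at 6243, 9198 and 7801 scaled reads. Mir23a, Mir27a and Mir24-2 lay together in a 25382-bp region with Zswim4 that ranked 173rd, at 3525, 3435 and 6491 (176.6 per kb). The Mir142 region ranked 450th by value but 59th per kb, at 2028, 2255 and 4137 over 13979 bp. In these last 2 regions replicate 3 was the high library.

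Mir223, known from granulocytes and monocytes, lay in a gene-free 11277-bp region at 1185, 2799 and 741 scaled reads, with replicate 2 the highest. The Mir155 hairpin lay in a 25967-bp region, overlapping Mrpl39, at 1 read in all 3 libraries. MiR-155 is known as a microRNA induced by inflammatory stimuli. A mark over a hairpin is not a measurement of the microRNA, and regions that also cover a protein-coding gene cannot be assigned to either.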

How the data were processed

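H3K27ac ChIP-seq was read in the 3 untreated libraries, and the other 9 columns of the table were not used here. The authors deposited 1 signal value per library and consensus region. The submitters' processing notes name mm10, DiffBind, MACS2, Bowtie2 and Trim Galore, and the part each played is not stated there. In each untreated library 100% of the deposited signal values were whole multiples of the lowest, within 0.0001 reads, so a value is a whole number times 1 scaling factor, either reads or a difference of reads held at a floor of 1. These read totals are not the sequencing depth.

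Values were averaged over the libraries, with no test between groups and no p-value, since no treatments were compared. Python 3.11.15 with pandas 2.3.3 was used. Placement of regions on genes, the ranking and the gene sums were tested on simulated data, and the other steps were not. Genes were RefSeq protein-coding genes of GRCm38.p6, the release of mm10, and starts came from a promoter table that lists 17492 of 21887 genes. It lists none on chromosome 18 or the contigs, so in shares over all regions those count as holding no start. Genes were named from the 20 strongest regions by each measure, the 15 widest, the 15 highest genes, and the 4 highest and 2 lowest genes of each list. Others were named for a region they share or as markers, after their values were seen. A few genes that this rule names are not reported here. Cxcl11, Mx1 and Mx2 did not match the gene table. The members and lists were chosen with earlier results of these data known. Alternatives left out each library, changed the averaging and scaling, the width limit, the floor and the way genes were scored. SDs are over 3 libraries from separate macrophage pools, and the spread between pools cannot be told apart from that between libraries.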

Additional observations from a re-analysis of the deposited data

How the results depend on the processing

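Of 36 alternatives, 34 left the value within 1.5 times the count reported, or within 1 SD for shares. That rule also passes a list of 407 that loses many members. Per kb, the median of the libraries kept 289 and a limit of 3 kb kept 301. Some outcomes were fixed beforehand. A limit of 1 kb kept all 407 per kb, as the narrowest of them is 1137 bp wide. The count at 3 reads or fewer cannot fall below that at 1 read. Leaving out 1 library at a time kept 376 to 395 of the 407 strongest regions by value and 265 to 349 of those per kb, the lowest counts being those without replicate 3 (by value also without replicate 2). The share of scaled reads in the strongest 1% of regions, 21.3% for the averaged values, was 20.6% to 21.9% without a library. Some of the 70 lineage factor and macrophage surface genes share a region. Of the 70, 51 were in the top 10%, and 49 to 52 without a library. That count was 24 when sums were divided by the covered width, an alternative that by its construction removes the weight of wide regions. Restricting the lists to placed chromosomes, an alternative chosen after seeing the data, kept 406 regions by value and 405 per kb. It could remove no more than the contig regions on each list, 1 by value and 2 per kb. No paired analysis was possible because no groups were compared. Regions at 1 read were 5803, or 6484 at 3 reads or fewer. The number of libraries, 3, limits every SD, and the median of 30 reads per region in replicate 2 limits weak regions.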

Other observations

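The strongest 1% of regions were spread unevenly over the chromosomes. Chromosome 19 had 19 of its 1209 regions on the list (1.57%) and chromosome 7 had 37 of 2375 (1.56%). The X chromosome had 2 of 1242 (0.16%), and chromosome Y had none of 35. Median values per region were 62.6 scaled reads on chromosome 19 and 36.3 on X. These are values only, chosen after they were seen, and were not tested.

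Other wide regions at 1 read in all 3 libraries lay in or beside Itgb8, Rcl1, Atp8a1, Zc3h12c, St3gal3 and Dcn, at widths between 38287 and 57532 bp.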
